A study of Mus musculus with 8 samples.

Results

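Acute-phase plasma protein genes and metallothionein genes were followed across the livers of fasted and refed WT and HRD1Alb mice. The set holds 10 genes taken by symbol from the count files: the serum amyloid A genes *Saa1*, *Saa2* and *Saa3*, the orosomucoid genes *Orm1* and *Orm2*, lipocalin 2 (*Lcn2*), haptoglobin (*Hp*), hemopexin (*Hpx*) and the metallothionein genes *Mt1* and *Mt2*. These are 10 of 23337 gene symbols, and all 10 were among the 14328 genes that passed the filter on low counts. The mice were of the C57BL/6 strain and 12 weeks old. HRD1Alb mice, named KO in the sample labels with genotype Hrd1-/-, carry a floxed *HRD1* gene (symbol *Syvn1*) that is deleted by Cre under the albumin promoter, which is active in hepatocytes. In WT mice the gene is not deleted. The paper describes the controls of HRD1Alb mice as floxed mice without the Cre transgene. Livers were taken after an overnight fast (WT-Fasted and KO-Fasted) or after a fast and then 4 h of refeeding (WT-Refed and KO-Refed), so that each of the 4 groups has 2 samples, 8 together. The feeding state was taken from the treatment label, since the protocol text of all 8 samples, the fasted ones too, names the refeeding, and every refeeding result rests on that label. Sex and the number of animals behind a sample were not given in the sources used here, so the p-values measure only the spread between these samples, which may be technical.

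The liver secretes acute-phase proteins into plasma, and their genes are known to be induced in hepatocytes by interleukin-6 and interleukin-1 through STAT3, C/EBP and NF-kB factors. Serum amyloids travel on high-density lipoprotein, orosomucoids bind basic and lipophilic ligands, lipocalin 2 sequesters bacterial iron chelators, haptoglobin captures free hemoglobin and hemopexin captures heme. Metallothioneins are small cysteine-rich proteins of the cytosol that bind zinc and copper. Their genes are induced by metals through the factor MTF1, which binds metal response elements, and by glucocorticoids.

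The libraries held 40210576 to 49117080 counts each. At these depths 3 counts correspond to 0.0611 to 0.0746 CPM, the usual count per library scaled to a common depth, well under the lowest value of any of the 10 genes, and these limits cover counting error only. The targeted gene *Syvn1* was at 111 and 99.8 CPM in WT-Fasted replicates 1 and 2 and at 32.6 and 31.5 CPM in KO-Fasted replicates 1 and 2. After refeeding it was at 637 and 305 CPM in WT-Refed replicates 1 and 2, and at 453 and 132 CPM in KO-Refed replicates 1 and 2. The library labelled KO-Refed replicate 1 therefore lay within the WT-Refed range of a count over the whole gene, which also takes reads from exons that a deletion leaves, so that every direction drawn from the refed genotype comparison rests on labels that *Syvn1* did not bear out in 1 library. The KO-Refed libraries were also the least alike pair: 3204 genes stood at least 2-fold apart in log2 CPM (Spearman's rho 0.955 across 14328 genes, which are not independent replicates), against 424 to 1141 genes in the other groups. In KO-Refed the difference between the libraries followed transcript length, with a rho of -0.582 over 12968 genes against -0.115 to 0.0383 in the other groups, and shorter transcripts had the higher values in replicate 2. This touches every gene of the set, since their principal transcripts are 511 to 1499 nt long and the median transcript tested was 2925.5 nt.

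**Figure D1:**
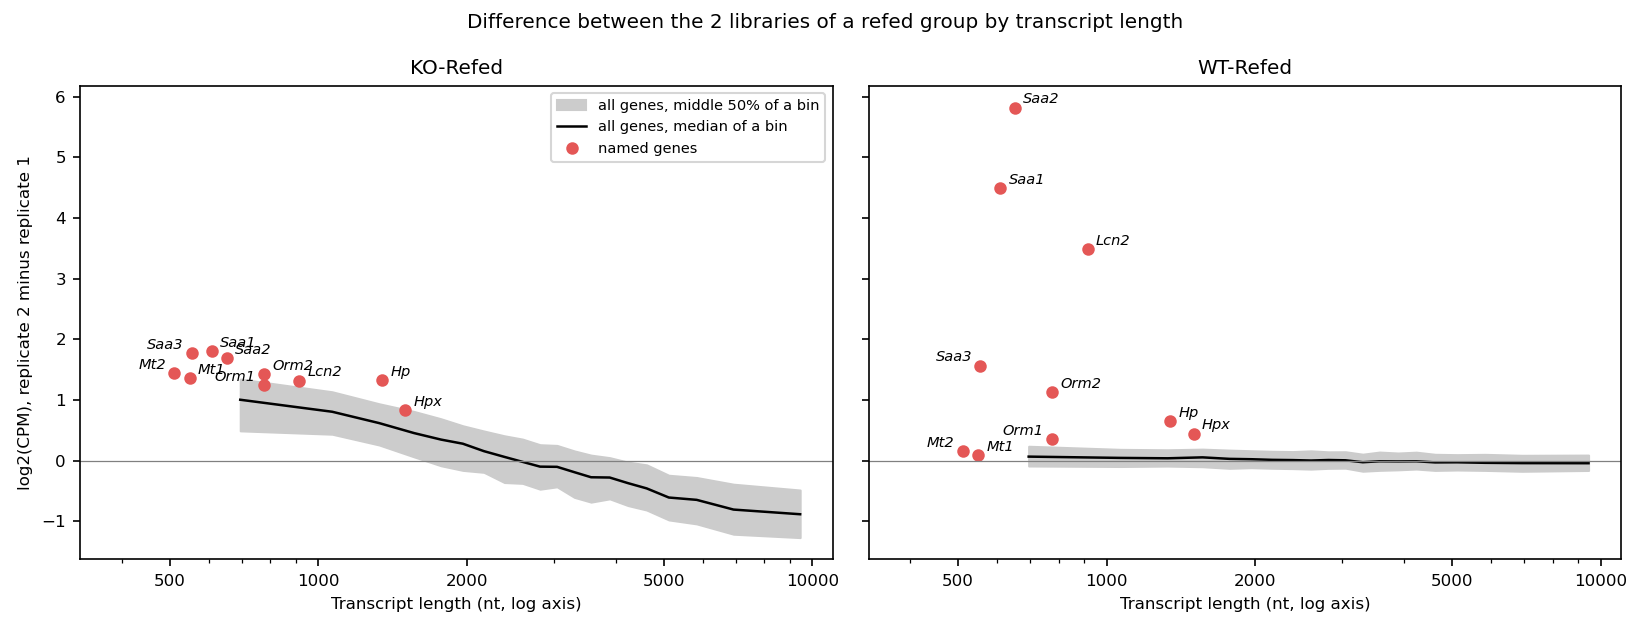
Difference in log2 CPM between replicate 2 and replicate 1 of KO-Refed (left) and WT-Refed (right) against transcript length in nt on a log axis. The line and band give the median and middle 50% of all genes in 20 length bins, and the points give the 10 genes: in KO-Refed all 10 lie above 0, from 0.84 for *Hpx* to 1.80 for *Saa1*, and in WT-Refed the metallothioneins lie near 0 while *Saa2* reaches 5.82.

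At the lengths of the 10 genes the fitted trend in KO-Refed ran from 0.39 (*Hpx*) to 0.96 (*Mt2*) on the log2 scale. All 10 genes were higher in KO-Refed replicate 2 by more than this trend, by 0.40 (*Mt1*) to 0.86 (*Saa1*). Results of the 10 genes that use KO-Refed are therefore given with the value without replicate 2, or with an offset for length, where that changes a call. For the genes of the pathway and marker lists no such value is given.

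Levels within the set spanned a wide range. Per kilobase of transcript, *Hp* at 3937 ± 126 and *Hpx* at 2772 ± 333 CPM per kilobase (mean ± SD, n = 2) led in WT-Fasted, and these 2 genes held 86.2% to 93.3% of the summed CPM of the set in the 8 libraries. *Orm1* at 570 ± 41.2, *Mt1* at 284 ± 6.30, *Mt2* at 160 ± 29.2 and *Saa1* at 62.5 ± 34.6 followed on the same per-kilobase scale. *Lcn2*, *Saa3*, *Saa2* and *Orm2* came last, at 9.34 to 13.6 CPM per kilobase, and did not differ from one another beyond the spread of their samples. In WT-Refed the order changed most at *Mt2*, which took the tenth place at 10.9 ± 0.824, and in KO-Fasted *Hpx* (2170 ± 181) came before *Hp* (1792 ± 26.1).

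**Figure D2:**
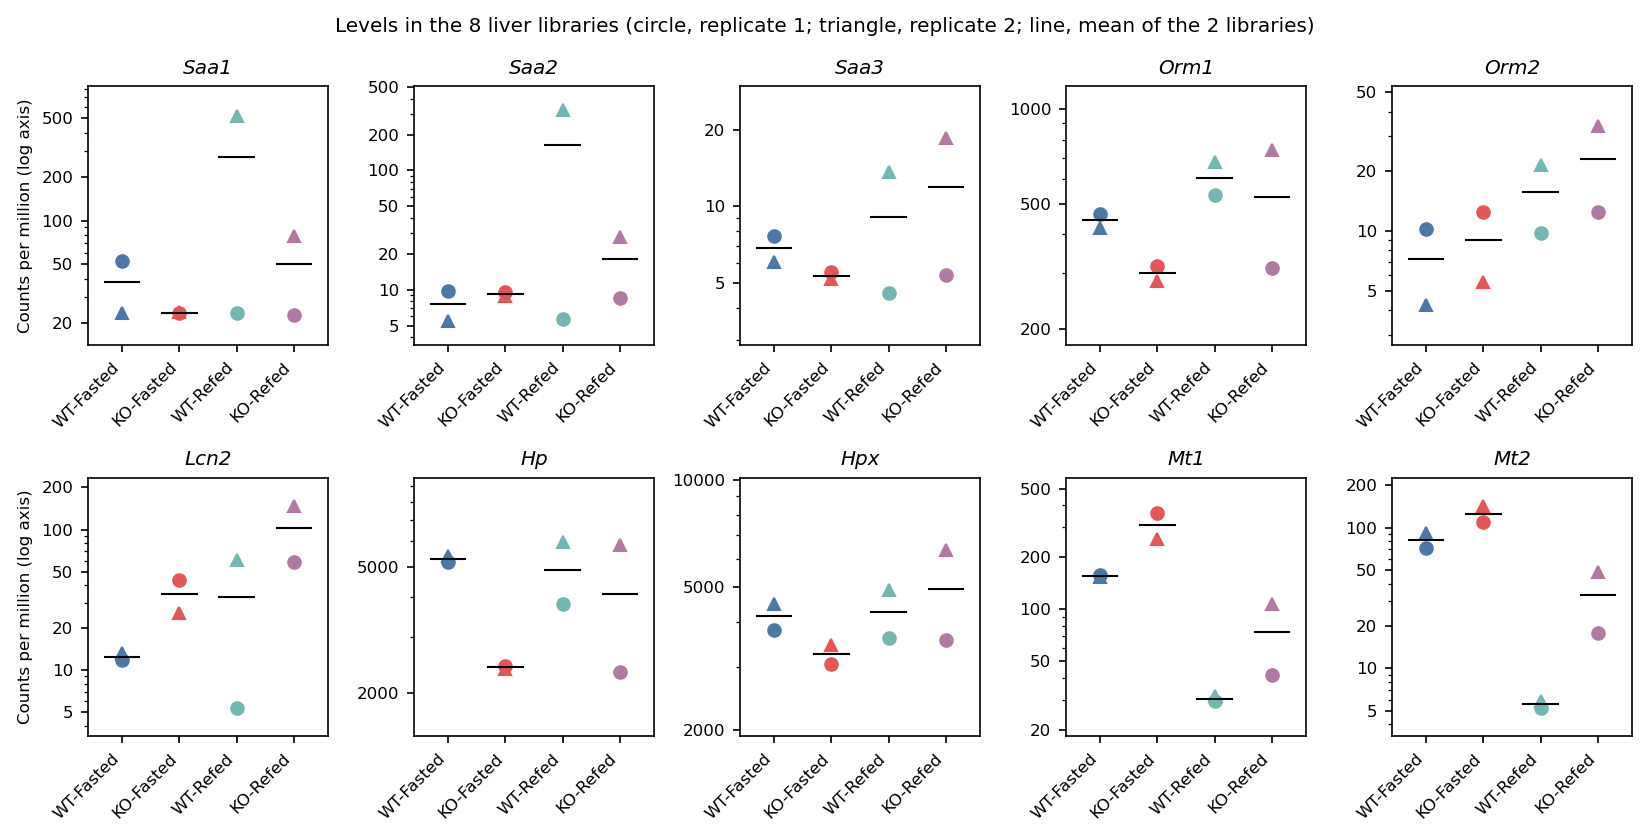
Normalized CPM of the 10 genes on log axes in the 4 groups, with each library as a point (circle, replicate 1, and triangle, replicate 2) and a line at the mean of the 2 libraries. *Mt1* and *Mt2* separate fasted from refed libraries, while *Saa1*, *Saa2* and *Lcn2* are high in WT-Refed replicate 2 and low in WT-Refed replicate 1.

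The metallothioneins were the genes of the set that changed, and they fell with refeeding in both genotypes. *Mt1* and *Mt2* lie next to each other on chromosome 8, at 94179082-94180327 and 94172664-94173568 on the plus strand of GRCm38. Since both changed in the same direction, the bases before their start sites are shown, from RefSeq on GRCm38.p6, 5′ to 3′, without any base that GENCODE places in an exon of the gene. Capitals mark the metal response element core, searched as TGCACNC or TGCGCNC on both strands:
Mt1, chr8:94178839-94179081, plus strand: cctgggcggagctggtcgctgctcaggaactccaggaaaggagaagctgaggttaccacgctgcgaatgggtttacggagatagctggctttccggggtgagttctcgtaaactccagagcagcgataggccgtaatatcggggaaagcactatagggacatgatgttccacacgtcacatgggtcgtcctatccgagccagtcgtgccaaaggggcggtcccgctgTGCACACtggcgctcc
Mt2, chr8:94172368-94172617, plus strand: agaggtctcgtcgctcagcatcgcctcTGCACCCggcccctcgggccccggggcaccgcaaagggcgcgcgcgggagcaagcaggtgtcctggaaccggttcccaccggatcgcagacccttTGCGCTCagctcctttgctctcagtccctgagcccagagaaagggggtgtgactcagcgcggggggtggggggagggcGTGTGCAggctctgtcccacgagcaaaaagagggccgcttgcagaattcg
The 250 bases before the RefSeq start held 1 core for *Mt1* and 3 for *Mt2*, and 21.4% of 32851 such windows of all genes held at least 1, and 1.26% at least 3. The start used matters here: GENCODE places other *Mt1* transcripts 122 and 152 bases and *Mt2* transcripts 46 and 242 bases downstream of the RefSeq start, and bases beyond the start were not searched.

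*Mt1* was at 158 and 153 CPM in WT-Fasted replicates 1 and 2 and at 29.3 and 31.4 CPM in WT-Refed. Its fasted and refed WT libraries were far apart and the pairs of replicates close together. It fell by 2.36 on the log2 scale with refeeding in WT liver (SE 0.42, 5.13-fold lower, adjusted p = 0.0376). *Mt2* was at 71.2 and 92.2 CPM in WT-Fasted and at 5.26 and 5.86 CPM in WT-Refed, and fell by 3.88 (SE 0.47, 14.7-fold lower, adjusted p = 0.0170). These were the 2 genes of the 10 called in WT refeeding, at an adjusted p under 0.05 by edgeR's quasi-likelihood test, where 2.61% of all genes tested were called and 1.41% were called lower. Their direction held under every alternative fit, with *Mt2* between -4.05 and -3.65 when 1 library was left out. Neither call held when any 1 of the WT or KO-Fasted libraries was left out, in fits that called hardly any of all genes. Both held without either KO-Refed library, in fits that called a far larger share of all genes than with all 8 libraries.

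In HRD1Alb liver the fall with refeeding was also called. *Mt1* was at 362 and 256 CPM in KO-Fasted and at 41.5 and 107 CPM in KO-Refed, and fell by 2.06 (SE 0.41, adjusted p = 0.0264). *Mt2* was at 110 and 142 CPM in KO-Fasted and at 18.0 and 48.6 CPM in KO-Refed, and fell by 1.92 (SE 0.43, adjusted p = 0.0352). These were again the 2 genes of 10 called, against 10.5% of all genes and 5.05% called lower. Every fasted library was above every refed library of the same genotype for both genes. Without KO-Refed replicate 2 the falls were 2.90 for *Mt1* and 2.81 for *Mt2* (adjusted p 0.000717 and 0.000906), and without replicate 1 they were 1.54 and 1.38 (adjusted p 0.000789 and 0.00148). Without any 1 of the other 6 libraries neither call held, in fits that called a smaller share of all genes than with all 8 libraries. Neither held when only the 4 HRD1Alb samples were fitted (adjusted p 0.162 and 0.177), where 0 genes of all those tested were called.

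*Mt2* was also higher in HRD1Alb than in WT liver after refeeding. Both KO-Refed libraries, at 18.0 and 48.6 CPM, were above both WT-Refed libraries, at 5.26 and 5.86 CPM. The difference was 2.58 on the log2 scale (SE 0.45, 5.99-fold, adjusted p = 0.0190), and *Mt2* was the 1 gene of 10 called in the refed genotype comparison, where 11.9% of all genes were called and 7.09% called higher. *Mt2* was 1.69 higher without KO-Refed replicate 2 (adjusted p = 0.00312) and 1.78 higher with length offsets (adjusted p = 0.00546). The call did not hold without WT-Refed replicate 1 or replicate 2, in fits that called hardly any of all genes. It did not hold with only the 4 refed samples either (adjusted p = 0.120). *Mt1* was higher in both KO-Refed libraries too, by 1.29 (SE 0.40, 2.44-fold), without passing the threshold (adjusted p = 0.0777), and the difference was 0.45 without KO-Refed replicate 2 and 0.50 with length offsets (adjusted p 0.133 and 0.106). Without KO-Refed replicate 1 it was 1.81 and called, in a fit that called 52.8% of all genes.

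In fasted liver both metallothioneins were higher in each HRD1Alb library than in each WT library, and neither passed the threshold. *Mt1* differed by 0.99 (SE 0.40, adjusted p = 0.247) and *Mt2* by 0.62 (SE 0.42, adjusted p = 0.485). When either KO-Refed library was left out of the fit, which leaves these fold changes nearly as they were, both were called (adjusted p 0.00917 and 0.00949 for *Mt1*, 0.0367 and 0.0370 for *Mt2*), in fits that called 21.7% and 21.3% of all genes, against 1.35% with all 8 libraries.

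The balance of the metallothioneins differed between groups. Within a library, where depth cancels, the ratio of *Mt2* to *Mt1* counts was 0.450 and 0.602 in WT-Fasted and 0.179 and 0.187 in WT-Refed. In HRD1Alb liver it was 0.304 and 0.553 fasted and 0.432 and 0.456 refed. The WT ratios thus did not overlap between feeding states, whereas the HRD1Alb ratios did, and the KO-Refed ratios were close to each other although the levels of both genes differed more than 2-fold between those libraries. The transcripts have nearly the same length (549 and 511 nt) and shared no run of 50 bases (72.3% identity over aligned bases), so few reads could belong to either. The difference in the refeeding response between genotypes was 1.96 for *Mt2* (SE 0.60, unadjusted p = 0.0127, adjusted p = 0.561, or 2.50 without KO-Refed replicate 1 and 1.07 without replicate 2, at adjusted p 0.00108 and 0.127) and 0.30 for *Mt1* (SE 0.56, adjusted p = 0.842).

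**Figure D3:**
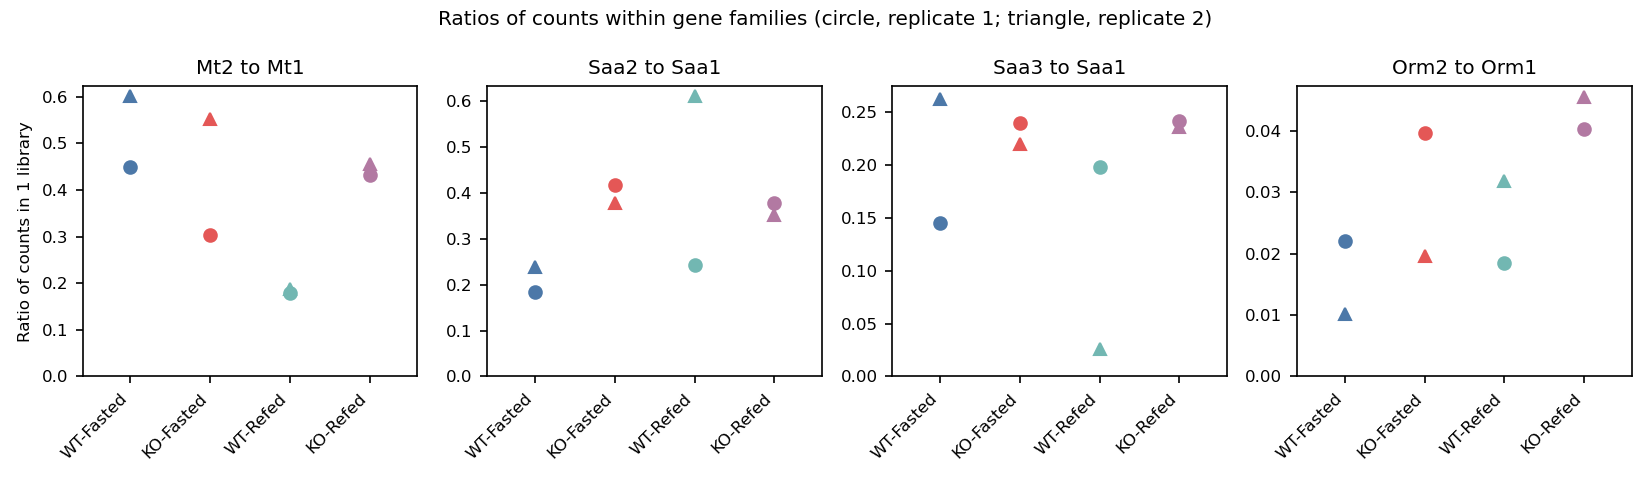
Ratio of counts between related genes within each library (circle, replicate 1, and triangle, replicate 2) in the 4 groups. The *Mt2* to *Mt1* ratio is lowest in both WT-Refed libraries (0.179 and 0.187), and WT-Refed replicate 2 has the highest *Saa2* to *Saa1* ratio (0.612) and the lowest *Saa3* to *Saa1* ratio (0.0261).

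The serum amyloid genes stood far higher in WT-Refed replicate 2 than in any other library for *Saa1* and *Saa2*, and no difference of the 3 genes was called. *Saa1*, *Saa2* and *Saa3* lie close together on chromosome 7 of GRCm38, at 46740497-46742980 on the minus strand, 46751790-46754313 on the plus strand and 46711998-46715700 on the minus strand. *Saa1* and *Saa2* encode the circulating acute-phase forms made by hepatocytes, and *Saa3* is also made outside hepatocytes, by macrophages among others. The bases before *Saa1* and *Saa2* are shown from RefSeq on GRCm38.p6, again without exon bases, because both genes were far higher in WT-Refed replicate 2 than elsewhere, and capitals mark the letters TTGCNNAA, a C/EBP-like word searched on both strands:
Saa1, chr7:46742981-46743230, minus strand: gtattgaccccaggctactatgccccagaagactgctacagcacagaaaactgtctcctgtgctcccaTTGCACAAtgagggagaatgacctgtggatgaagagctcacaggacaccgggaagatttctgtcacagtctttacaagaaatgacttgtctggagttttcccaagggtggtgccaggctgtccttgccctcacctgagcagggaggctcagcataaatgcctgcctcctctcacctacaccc
Saa2, chr7:46751583-46751789, plus strand: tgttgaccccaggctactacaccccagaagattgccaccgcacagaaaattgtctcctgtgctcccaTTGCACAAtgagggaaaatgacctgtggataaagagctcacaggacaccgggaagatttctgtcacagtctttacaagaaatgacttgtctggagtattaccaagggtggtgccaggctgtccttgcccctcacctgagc
The 250 bases before the start are 95.6% identical between *Saa1* and *Saa2*, and both hold the same word, TTGCACAA, which starts 182 and 183 bases before the start site. Windows were found for 8 of the 10 genes, not for *Orm1* and *Hp*. All 6 windows of acute-phase genes held the C/EBP-like word (*Saa1*, *Saa2*, *Saa3*, *Orm2*, *Lcn2* and *Hpx*), as did that of *Mt2* and not that of *Mt1*, whereas 9.56% of all windows held it. The near-identical *Saa1* and *Saa2* windows are not separate cases, and a match is a description of letters, not of binding. GENCODE places 197 of the 250 *Lcn2* bases in an exon of the gene, and the *Lcn2* match lies in that part. None of the 8 windows held the STAT-like word TTCNNNGAA, found in 7.02% of all windows.

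*Saa1* was at 53.0 and 23.1 CPM in WT-Fasted, 23.1 and 23.6 CPM in KO-Fasted, 23.2 and 522 CPM in WT-Refed, and 22.5 and 78.3 CPM in KO-Refed. Apart from WT-Refed replicate 2, and to a lesser extent KO-Refed replicate 2 and WT-Fasted replicate 1, the libraries were thus nearly equal. *Saa2* was at 9.75 and 5.50 CPM in WT-Fasted, 9.64 and 8.94 CPM in KO-Fasted, 5.63 and 319 CPM in WT-Refed, and 8.51 and 27.5 CPM in KO-Refed. The WT-Refed libraries differed 22.5-fold in *Saa1* and 56.7-fold in *Saa2*. *Saa3* was at 4.59 and 13.6 CPM in WT-Refed, a 2.97-fold difference between the same libraries, and at 5.42 and 18.5 CPM in KO-Refed. In WT-Fasted and KO-Fasted it was at 5.19 to 7.68 CPM.

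None of *Saa1*, *Saa2* and *Saa3* passed the test in any comparison. The largest fold changes were those of WT refeeding, 2.84 for *Saa1* (SE 1.24, adjusted p = 0.316) and 4.41 for *Saa2* (SE 1.53, adjusted p = 0.209), and without WT-Refed replicate 2 these turned to -0.71 and -0.44. The refed genotype differences, -2.44 for *Saa1* (SE 1.22, adjusted p = 0.200) and -3.18 for *Saa2* (SE 1.44, adjusted p = 0.167), turned to 1.11 and 1.67 without the same library. *Saa1* and *Saa2* transcripts are 94.4% identical over aligned bases, with 9.11% of the 50-base words of *Saa1* also in *Saa2*, so counting could have moved some reads from one to the other. The *Saa2* to *Saa1* ratio of counts ran from 0.184 to 0.612, with the highest in WT-Refed replicate 2. In that library *Saa3* stood at 0.0261 of the *Saa1* count, against 0.145 to 0.263 in the other 7 libraries.

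*Lcn2* (chromosome 2, 32384633-32388252, minus strand) had its lowest and highest values among refed libraries. It was at 11.7 and 13.2 CPM in WT-Fasted and at 43.6 and 25.5 CPM in KO-Fasted, so that the fasted genotypes did not overlap. It was at 5.38 and 60.5 CPM in WT-Refed and at 58.8 and 147 CPM in KO-Refed, where WT-Refed replicate 2 was just above KO-Refed replicate 1. The genotype difference was 1.47 in fasted liver (SE 0.94, adjusted p = 0.469) and 1.64 in refed liver (SE 0.94, adjusted p = 0.251), and refeeding gave 1.40 in WT (SE 0.94, adjusted p = 0.549) and 1.57 in HRD1Alb liver (SE 0.94, adjusted p = 0.280). None was called. Without WT-Refed replicate 2 the refed genotype difference was 4.25 and the WT refeeding difference turned to -1.21, neither called.

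The orosomucoid genes *Orm1* and *Orm2* stand side by side on chromosome 4, at 63344560-63348163 and 63362449-63365878 on the plus strand. *Orm1* was at 464 and 419 CPM in WT-Fasted and at 316 and 284 CPM in KO-Fasted, with no overlap. It was at 533 and 679 CPM in WT-Refed and at 312 and 740 CPM in KO-Refed, whose libraries lay on either side of the WT ones. The difference of *Orm1* was -0.56 in fasted liver (SE 0.37, adjusted p = 0.478) and -0.20 in refed liver (SE 0.36, adjusted p = 0.710). With length offsets the refed value was -0.90 (adjusted p = 0.0183), and without KO-Refed replicate 2 it was -0.96 (adjusted p = 0.0116), in a fit that called 23.7% of all genes. The fasted value was called as well without either KO-Refed library (adjusted p 0.0315 and 0.0317). *Orm2* was at 4.26 to 33.7 CPM in the 8 libraries, only 0.0102 to 0.0455 of the *Orm1* count, and its genotype and refeeding differences, 0.32 to 1.35, were not called (adjusted p 0.204 to 0.856). The transcripts are 91.0% identical and share 20.4% of their 50-base words, so the low *Orm2* counts are uncertain.

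Haptoglobin separated the fasted genotypes without passing the threshold. *Hp* (chromosome 8, 109575128-109579172, minus strand) was at 5175 and 5415 CPM in WT-Fasted and at 2434 and 2385 CPM in KO-Fasted, a difference of -1.14 (SE 0.42, 2.20-fold lower). The replicates differed 1.05-fold and 1.02-fold in WT-Fasted and KO-Fasted, yet the gene did not pass the threshold in the 4-group fit (adjusted p = 0.209), whose spread is shared with the KO-Refed libraries. *Hp* was called without KO-Refed replicate 1 (adjusted p = 0.0133), without KO-Refed replicate 2 (adjusted p = 0.0135) and with only the 4 fasted samples (adjusted p = 0.0124), but the fits without a KO-Refed library called 21.7% and 21.3% of all genes. The share of all genes called with only the 4 fasted samples is not given here, so that call is no result about *Hp* alone. After refeeding *Hp* was at 3804 and 5967 CPM in WT-Refed and at 2330 and 5865 CPM in KO-Refed, and the difference was -0.25 (SE 0.41, adjusted p = 0.680). KO-Refed replicate 1 thus stood at the KO-Fasted level and replicate 2 at the WT level. Without KO-Refed replicate 2 the refed difference was -1.07 (adjusted p = 0.0294), in a fit that called 23.7% of all genes.

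*Hpx* (chromosome 7, 105591613-105600137, minus strand) varied least. It was at 3802 and 4507 CPM in WT-Fasted, 3061 and 3445 CPM in KO-Fasted, 3618 and 4919 CPM in WT-Refed, and 3554 and 6349 CPM in KO-Refed. Its fold changes were -0.35 in fasted and 0.21 in refed liver between genotypes, and 0.04 in WT and 0.61 in HRD1Alb liver with refeeding (SE 0.30 in each, adjusted p 0.211 to 0.979). None was called.

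**Figure D4:**
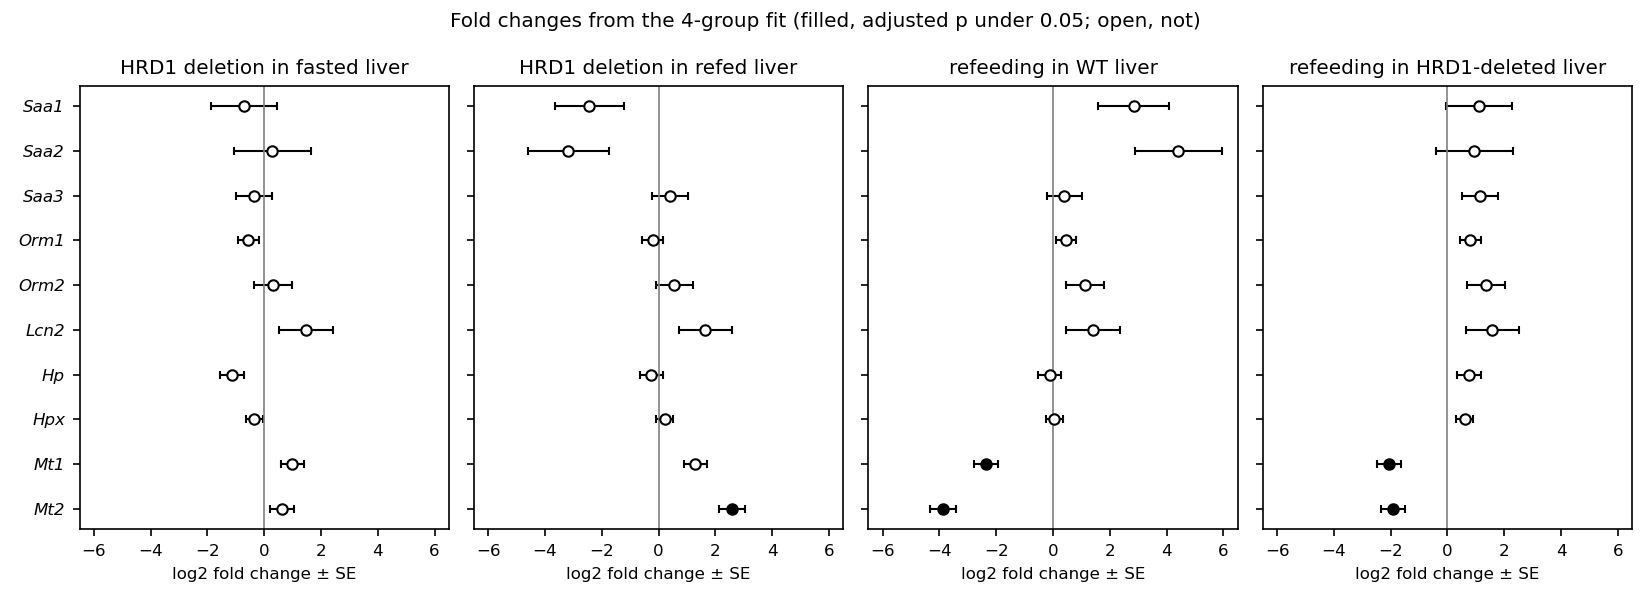
log2 fold changes of the 10 genes in the 4 comparisons, with bars of 1 SE, from the 4-group fit. Filled points passed an adjusted p of 0.05: *Mt1* and *Mt2* in refeeding of WT and of HRD1Alb liver and *Mt2* in the refed genotype comparison. The *Saa1* and *Saa2* bars are the widest.

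Counted over the set, 0 of 10 genes were called between fasted genotypes by edgeR, where 1.35% of all genes were. At an unadjusted p under 0.05 there were 2 (*Hp* and *Mt1*), beside 18.4% of all genes, DESeq2 called 0, and limma-trend called 0. The fasted genotypes did not overlap for 7 of the 10 genes, 3 higher (*Lcn2*, *Mt1* and *Mt2*) and 4 lower (*Saa3*, *Orm1*, *Hp* and *Hpx*), beside 30.6% and 34.2% of all genes. Refed genotypes did not overlap for 2 genes, both higher (30.7% of all genes). With refeeding the WT libraries did not overlap for 1 gene that was higher (*Orm1*, beside 30.8% of all genes) and 2 that were lower (29.6%), and the HRD1Alb libraries for 3 that were higher (*Orm2*, *Lcn2* and *Hpx*, beside 29.2%) and 2 that were lower (29.5%). The median log2 fold change of the 10 genes was -0.03, beside -0.02 over all genes tested. Between refed genotypes the median was 0.30 beside 0.04, with WT refeeding it was 0.43 beside 0.00, and with HRD1Alb refeeding 0.88 beside 0.02. The medians that use KO-Refed are not corrected for transcript length. In that group the trend with length placed replicate 2 of these genes 0.39 to 0.96 above replicate 1. The 10 transcripts are shorter than most, so these medians are not a like comparison with all genes. For the interaction of genotype and feeding, 0 of 10 genes and 0 of all genes (0%) were called by edgeR. At an unadjusted p under 0.05 there were 1 of 10 genes (*Mt2*) and 1209 of all genes (8.44%), and DESeq2 called none of the 10 and 91 of all genes. Without KO-Refed replicate 1, which leaves 1 library in its group, 7 genes were called in HRD1Alb refeeding, with *Saa3*, *Orm1*, *Orm2*, *Hp* and *Hpx* higher and the metallothioneins lower, and 5 for the interaction (*Orm1*, *Hp*, *Hpx*, *Mt1* and *Mt2*), in a fit that called 51.4% and 33.4% of all genes. Without KO-Refed replicate 2 these counts were 2 and 0. With 2 samples on each side, exact permutation would reach a p of 0.333 at best, and the calls therefore depend on the variance that edgeR borrows from other genes.

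Genes of the surrounding pathways were counted from lists chosen with these data known. Their calls that use KO-Refed are given without a value for KO-Refed replicate 2 left out or for length offsets. Of 22 other positive acute-phase protein genes tested, 3 were higher and 2 lower in refed HRD1Alb liver, where 7.09% of all genes were called higher and 4.84% lower. *Cd14*, a co-receptor for bacterial lipopolysaccharide, was at 0.840 and 1.47 CPM in WT-Refed and at 7.30 and 8.20 CPM in KO-Refed (log2 2.75, adjusted p = 0.00820). *Hamp*, encoding the iron hormone hepcidin, was at 524 and 441 CPM in WT-Refed and at 1096 and 1026 CPM in KO-Refed (log2 1.14, adjusted p = 0.0129). *Il1rn*, the interleukin-1 receptor antagonist, was higher by 2.25 (adjusted p = 0.0144). Like the metallothioneins *Il1rn* fell with refeeding, by 2.04 in WT and by 1.42 in HRD1Alb liver (adjusted p 0.0355 and 0.0376). *Hamp* went the other way in HRD1Alb refeeding and rose by 1.88 (adjusted p = 0.0039). In WT refeeding 1 gene of the list was called lower, beside 1.41% of all genes. In HRD1Alb refeeding 1 was called higher and 1 lower, where 10.5% of all genes were called in either direction. The 2 lower genes, named after their values were seen, were *Crp*, by 0.76 (adjusted p = 0.0269), and the constitutive serum amyloid gene *Saa4*, by 1.31 (adjusted p = 0.0296). The median genotype difference of this list was -0.50 in refed and -0.63 in fasted liver, beside 0.04 and -0.02 over all genes tested. Of 10 negative acute-phase protein genes, such as albumin and transthyretin, edgeR called 0 in each comparison. At an unadjusted p under 0.05 there were 5 of them between fasted (18.4% of all genes were) and 1 between refed genotypes, 1 in WT and 0 in HRD1Alb refeeding, and DESeq2 called 1, 1, 0 and 0.

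Of 27 genes of interleukin-6 and interleukin-1 signaling tested, 2 were higher and 3 lower in refed HRD1Alb liver, beside 7.09% and 4.84% of all genes. The higher ones, named after their values were seen, were the C/EBP factor genes *Cebpb* and *Cebpd*, by 1.22 and 1.34 (adjusted p 0.0249 and 0.0242), and the lower ones were receptor genes. *Lifr*, the leukemia inhibitory factor receptor, was at 270 and 339 CPM in WT-Refed and at 97.1 and 97.4 CPM in KO-Refed (log2 -1.65, adjusted p = 0.00820). *Il6ra*, the interleukin-6 receptor, was at 27.9 and 25.7 CPM in WT-Refed and at 5.65 and 2.10 CPM in KO-Refed (log2 -2.78, adjusted p = 0.0149), and *Il1rap*, the interleukin-1 co-receptor, was lower by 1.04 (adjusted p = 0.0176). With refeeding *Bcl3*, an NF-kB partner, rose by 1.76 in WT and by 1.80 in HRD1Alb liver (adjusted p 0.00685 and 0.00348). *Cebpd* fell by 1.77 in WT and by 1.18 in HRD1Alb liver (adjusted p 0.0278 and 0.0294). In HRD1Alb refeeding *Il6ra* fell by 3.05 and *Nfkbia* by 1.13 (adjusted p 0.0112 and 0.0172). In WT refeeding they fell by 0.64 and 0.62, not called (adjusted p 0.519 and 0.164). Called in WT refeeding were 1 higher and 1 lower, beside 2.61% of all genes in either direction. In HRD1Alb refeeding 1 was called higher and 3 lower, beside 10.5%.

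Of 16 zinc and metal handling genes tested, edgeR called 0 in WT refeeding, where the metallothioneins fell and 2.61% of all genes were called. At an unadjusted p under 0.05 there were 2, and DESeq2 called 1. In HRD1Alb refeeding edgeR called 2, both higher, where 10.5% of all genes were called in either direction. *Slc39a10* rose by 1.955 and *Slc30a6* by 0.67 there (adjusted p 0.0483 and 0.0392). The KO-Refed libraries were at 18.7 and 5.70 CPM of *Slc39a10*. In WT refeeding *Slc39a10* rose by 1.91 without being called (adjusted p = 0.107). Between refed genotypes 1 was higher and 3 were lower, beside 7.09% and 4.84% of all genes. Between fasted genotypes 1 was lower, where 1.35% of all genes were called in either direction. *Slc30a10*, a manganese exporter, was lower in HRD1Alb liver by 1.14 in fasted and by 1.21 in refed liver (adjusted p 0.0452 and 0.0152), and *Slc39a14*, a zinc and manganese importer of hepatocytes, was lower by 0.81 in refed liver (adjusted p = 0.0458), whereas *Slc39a6*, a zinc importer, was higher by 1.51 there (adjusted p = 0.0487). Of 10 genes listed for the glucocorticoid response, which include the receptor gene *Nr3c1* beside target genes, 1 was called in WT refeeding and 5 in HRD1Alb refeeding. All were lower, where 1.41% and 5.05% of all genes were called lower. Between refed genotypes 1 was called, beside 11.9% of all genes. It was *Sgk1*, a serum and glucocorticoid regulated kinase, higher in HRD1Alb liver by 2.98 (adjusted p = 0.0290). *Gadd45b*, a stress-induced growth arrest gene, fell by 2.25 in WT and by 2.15 in HRD1Alb liver (adjusted p 0.0292 and 0.0128). *Per1*, a clock gene, fell by 2.32 in HRD1Alb liver (adjusted p = 0.0342). It fell by 2.34 in WT liver without being called (adjusted p = 0.0714). *Tsc22d3* fell by 1.01 in HRD1Alb liver (adjusted p = 0.0435) and by 0.05 in WT liver (adjusted p = 0.834). The median of the list was -1.30 in WT and -1.57 in HRD1Alb refeeding.

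Of 10 genes that clear the ligands of these proteins, 2 were called higher between fasted and 3 between refed genotypes, where 0.921% and 7.09% of all genes were. *Cd36*, a fatty acid and lipoprotein receptor, was higher in HRD1Alb liver by 2.31 fasted and by 1.26 refed (adjusted p 0.0140 and 0.0190), and *Slc22a17*, a lipocalin 2 receptor, by 1.55 refed (adjusted p = 0.0354). With HRD1Alb refeeding 1 rose, *Hmox1*, and 1 fell, *Scarb1*, by 0.64 (adjusted p = 0.0378), where 10.5% of all genes were called. *Hmox1*, the heme-degrading enzyme, was at 10.7 and 11.7 CPM in WT-Fasted and at 34.5 and 30.8 CPM in KO-Fasted, and at 15.2 and 12.9 CPM in WT-Refed and at 61.6 and 61.8 CPM in KO-Refed. It was higher in HRD1Alb liver by 1.54 fasted and by 2.14 refed (adjusted p 0.0156 and 0.00284). In the pair of genes taken for the hepatocyte factor CREBH, its target *Fgf21* was called in all 4 comparisons: it was higher in HRD1Alb liver by 1.97 fasted and by 3.67 refed, and fell with refeeding by 2.94 in WT and by 1.24 in HRD1Alb liver (adjusted p 0.00148 to 0.0156). *Creb3l3*, which encodes CREBH, was not called, at -0.14, 0.09, -0.45 and -0.21 in the same order. For the interaction edgeR and limma-trend called 0 genes of these lists, and edgeR called 0 of all genes. DESeq2 called 1 gene in each of 3 lists, beside the number over all genes given above. These were the lists of other positive acute-phase proteins, of interleukin-6 and interleukin-1 signaling and of CREBH.

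Markers of other liver cells moved with genotype, and fewer cells of a type cannot be told apart from less RNA per cell in whole liver. Of 10 Kupffer cell and macrophage markers 9 were found, led by *Clec4f* and *Cd5l*. Their summed level was 119 to 134 CPM in the WT libraries and 300 to 625 CPM in the HRD1Alb libraries. Between fasted genotypes 1 of 9 was called higher (0.921% of all genes were), and between refed genotypes 8 of 9 (7.09% of all genes were). Neutrophil markers (10 of 11 found) summed to 2.40 to 4.44 CPM in WT and 4.38 to 11.8 CPM in HRD1Alb libraries. Of 5 tested, 1 was called higher in refed HRD1Alb liver, where 7.09% of all genes were. *Saa3* and *Lcn2* are also made by such cells, and the part of these cells in their levels was not tested. In WT-Refed replicate 2, where *Saa1*, *Saa2* and *Lcn2* stood far above replicate 1, the macrophage sums were alike (134 and 132 CPM) and the neutrophil sums were 4.44 and 2.40 CPM. Hepatocyte markers, led by *Alb* and *Apoa1*, summed to 113520 to 150990 CPM in WT and 65484 to 103020 CPM in HRD1Alb libraries, and none of their 8 genes was at 0. Most of each sum was *Alb*. Between fasted genotypes edgeR called 0 of the 8, and between refed genotypes 1, lower (4.84% of all genes were). Their median differences were -0.71 and -0.51, beside -0.02 and 0.04 over all genes tested. *Tat* alone had the higher mean in HRD1Alb liver, by 0.13 fasted and 0.48 refed, not called. Sums of stellate cell markers were 240 to 507 CPM in WT and 538 to 629 CPM in HRD1Alb libraries. Lymphocyte markers summed to 4.29 to 13.1 CPM, endothelial markers to 93.8 to 123 CPM, cholangiocyte markers to 29.2 to 68.6 CPM and adipocyte markers, with *Lep* at 0 in all libraries, to 32.3 to 170 CPM.

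The genes whose pattern over the 8 libraries was most like that of a member were taken by Pearson's correlation of log2 CPM among 11918 genes, as a description, since the libraries of a group share their treatment and genotype. For *Mt1* these were *Gadd45b* (r = 0.985), *Rwdd3* (r = 0.980) and *Rad54b* (r = 0.975), with *Mt2* at 0.960. For *Hp* they were *Ambp* (r = 0.993), encoding alpha-1-microglobulin, *Aldh1l1* (r = 0.968) and *Ttr* (r = 0.965), encoding transthyretin. For *Lcn2* they were *Arv1* (r = 0.947), *Cenpm* (r = 0.947) and *Acot10* (r = 0.942). For *Saa1* they were *Rdh11* (r = 0.954), *Vrk1* (r = 0.902) and *Haus3* (r = 0.875), with *Saa2* at 0.970. Without WT-Refed replicate 2 the same genes were at 0.806, 0.841 and 0.779 with *Saa1*, and *Saa2* at 0.825, over 7 libraries.

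**Figure D5:**
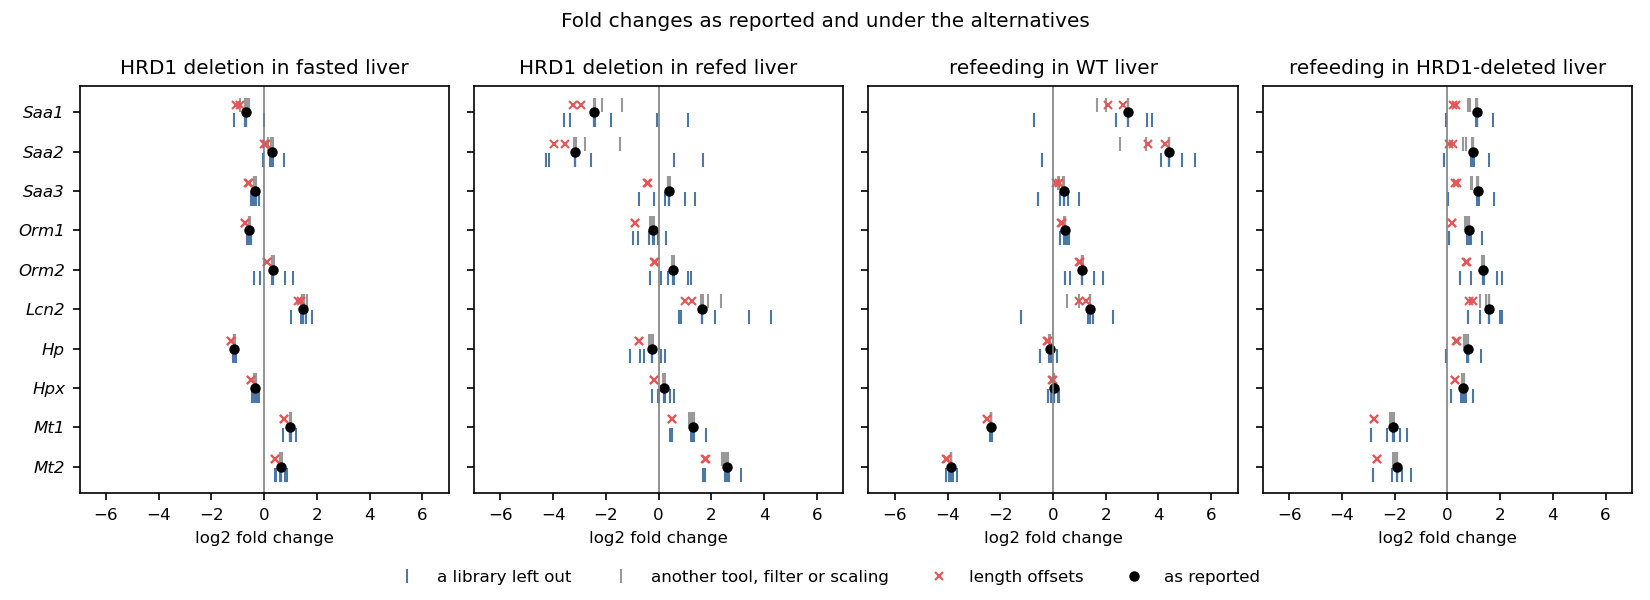
log2 fold changes of the 10 genes as reported (circles), with 1 library or both replicates 2 of refed liver left out (blue ticks), with another tool, filter or scaling (grey ticks) and with offsets for transcript length (crosses). *Mt1* and *Mt2* stay on the same side of 0 in all 4 comparisons, whereas *Saa1*, *Saa2* and *Lcn2* reach across 0 in WT refeeding when WT-Refed replicate 2 is left out.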

How the data were processed

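RNA-seq of liver was analysed from the gene counts the authors deposited, whole numbers per gene symbol without normalization. According to the study's methods, total hepatic RNA was sequenced on an Illumina NextSeq instrument, with each sample on 1 lane, counts and RPKM were made with ERANGE, and limma was used for testing. The submitters' processing notes name cutadapt, STAR, HTSeq, DESeq2 and the build mm10 without versions, so the counter and its strand setting are not settled. Samples were grouped by their labels.

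Counts were fitted in R 4.3.3 with edgeR 4.0.16 (filterByExpr with minimum count 10 and total 15, TMM, 1 quasi-likelihood model of the 4 groups over 8 samples, common dispersion 0.0573). Contrasts were adjusted by Benjamini-Hochberg over 14328 genes, and calls have an adjusted p under 0.05. Standard errors were derived from the F statistic of each fold change. CPM are TMM-normalized. Lengths and positions come from GENCODE M21, matched for 90.5% of tested genes. The steps were tested on simulated data.

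The genes, lists and tests were chosen with earlier results of these data known. The text names the 10 genes, up to 3 called genes of each pathway list with the smallest adjusted p, the leading markers and those at 0, and the 3 genes most like *Saa1*, *Lcn2*, *Hp* and *Mt1*. Alternatives were RLE scaling, no or a stricter filter (10 counts in every sample), the replicate number as a block, length offsets (loess span 0.3), only the samples of a contrast, limma-trend (3.58.1), the DESeq2 Wald test (1.42.0) and each library left out. Leaving out 2 refed libraries together was added after seeing the data. No batch is labelled. Figures used Python 3.11.15 and matplotlib 3.10.9, and transcripts were aligned with Biopython 1.88.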

Additional observations from a re-analysis of the deposited data

How the results depend on the processing

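There were 744 refits of single fold changes, which for the interaction cover only *Mt1* and *Mt2*. Of these refits, 641 kept direction and side of the threshold, 28 gained a call, 29 lost it and 46 changed sign. The fall of *Mt1* and *Mt2* with refeeding and the higher *Mt2* in refed HRD1Alb liver kept their direction in all of them. RLE scaling, the absence of a filter, the stricter filter and limma-trend left the number of the 10 genes called as it was in each comparison. The cause of the other changes was not tested. With only the 4 samples of a comparison, 4 genes were called between fasted genotypes (*Orm1*, *Lcn2*, *Hp* and *Mt1*), 0 between refed genotypes and 0 in HRD1Alb refeeding. DESeq2 called 2 between refed genotypes (*Mt1* and *Mt2*), and length offsets called 2 there (*Orm1* and *Mt2*), also with the replicate block, which further called 1 between fasted genotypes (*Hp*). These counts are given without the share of all genes called in the same fits, so they are no result about the 10 genes alone.

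Leaving out 1 library gave 0 to 4 called genes between fasted genotypes, 0 to 3 between refed genotypes, 0 to 2 in WT refeeding, 0 to 7 in HRD1Alb refeeding and 0 to 5 for the interaction. A group left with 1 sample was assumed to vary like the others. The share of all genes called differed widely between these fits, so the counts of this paragraph are no result about the named genes alone. The counts above the reported ones came from leaving out a KO-Refed library. Leaving out both WT-Refed replicate 2 and KO-Refed replicate 2, a choice made after seeing the data that leaves 1 library against 1, called 3 genes between refed genotypes (*Orm1*, *Lcn2* and *Mt2*).

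Values that changed sign were not called as reported. For genes outside the tally, the interaction changed sign in 6 of 17 refits for *Orm2*, 5 for *Lcn2* and 4 for *Orm1*. It did so in 2 each for *Saa1* and *Saa2*, 1 for *Saa3* and 0 for *Hp* and *Hpx*. With length offsets, first alone and then with the block, the refed genotype difference was -0.44 and -0.39 for *Saa3*, -0.15 and -0.16 for *Orm2*, and -0.18 and -0.19 for *Hpx*. The WT refeeding difference of *Hpx* was -0.013 and -0.024 and the interaction of *Mt1* was -0.27 in both. The fasted difference of *Saa2* was -0.024 with the block. Over single libraries left out, fasted genotype differences ranged from -1.15 to 0.0090 for *Saa1*, from -0.039 to 0.75 for *Saa2* and from -0.39 to 1.08 for *Orm2*. Refed genotype differences ranged from -3.60 to 1.11 for *Saa1*, from -4.26 to 1.67 for *Saa2*, from -0.75 to 1.37 for *Saa3*, from -0.96 to 0.28 for *Orm1*, from -0.33 to 1.23 for *Orm2*, from -1.07 to 0.26 for *Hp* and from -0.27 to 0.57 for *Hpx*. WT refeeding ranged from -0.71 to 3.77 for *Saa1*, from -0.44 to 5.38 for *Saa2*, from -0.58 to 0.98 for *Saa3*, from -1.21 to 2.27 for *Lcn2*, from -0.48 to 0.17 for *Hp* and from -0.20 to 0.24 for *Hpx*. HRD1Alb refeeding ranged from -0.057 to 1.74 for *Saa1*, from -0.13 to 1.56 for *Saa2* and from -0.049 to 1.28 for *Hp*, and the interaction of *Mt1* from -0.54 to 0.82. With both replicates 2 left out, the refed genotype difference was 0.59 for *Saa2* and -0.030 for *Hpx*, WT refeeding gave -0.71 for *Saa1*, -0.44 for *Saa2*, -0.58 for *Saa3*, -1.21 for *Lcn2* and -0.20 for *Hpx*, HRD1Alb refeeding gave -0.057 for *Saa1*, -0.13 for *Saa2* and -0.049 for *Hp*, and the interaction of *Mt1* was -0.49.

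Whether the replicate numbers pair the samples was not settled. Deviations of libraries with the same number correlated at 0.0161 to 0.179 over the 6 pairs of groups. With 2 libraries in each group, such low values cannot exclude a pairing. With the replicate number as a block 0, 1, 2, 2 and 0 genes were called in the fasted and refed genotype comparisons, WT and HRD1Alb refeeding and the interaction, and the refed difference of *Mt2* was 2.46 (adjusted p = 0.0177).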
